A study of Mus musculus with 17 samples.

Results

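The 6 genes described here encode the organic anion and urate transporters of the Slc22 family that work in the kidney: Slc22a6 (OAT1), Slc22a7 (OAT2), Slc22a8 (OAT3), Slc22a12 (URAT1), Slc22a13 (OAT10) and Slc22a22 (OAT-PG). They were chosen by gene name from a table of 48795 genes, 25 of which are named Slc22a. Read counts were available for 17 libraries of kidney cortex from 4 groups of mice, and the weight here lies on the 7 libraries of the kidney cancer model. The mice of the 5 WT libraries carried no deletion. Those of the 5 GCERAΔ libraries (genotype ATF4 KO) carried Atf4 fl/fl and a CreER transgene driven by part of the Ggt1 promoter, which is active in proximal tubules and mostly in segment 3, and at 6 weeks of age tamoxifen was given on 2 days, each time 200 µL of a solution with 20 mg/mL. WT and GCERAΔ mice were fasted for 16 h before death. The 3 TRACK libraries came from a transgenic model of kidney cancer. The 4 libraries labelled TRACK-ATF4 KO came, by their label, from mice that combined that model with the loss of Atf4. The transgene, the age, the tamoxifen and the fasting of both TRACK groups are not given in the sources used here, nor is whether WT mice received tamoxifen. The study's methods give fewer mice per cohort than there are WT or GCERAΔ libraries, so some libraries of these 2 groups share a mouse. Which ones the labels do not say. In the study's lane summary some sample names differ only by an added letter, but these names are not matched to the group labels. Throughout, n counts libraries, p-values measure the spread between libraries, and in every comparison that uses WT or GCERAΔ they are too small. For the TRACK groups the labels do not say whether each library came from its own mouse, litter or day.

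Proximal tubule cells clear drugs, toxins and metabolic waste by taking organic anions from blood and passing them into urine. OAT1 and OAT3 stand on the blood side and exchange organic anions for dicarboxylates that the cell takes up by other carriers. URAT1 and OAT10 stand on the urine side and return urate to the cell, and OAT-PG takes up prostaglandins. Several genes of this family are classic targets of the hepatocyte nuclear factor HNF4, and several differ between male and female rodents.

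Slc22a6 and Slc22a8 are neighbours on chromosome 19 of GRCm38, and they are shown first because their levels moved in opposite directions in the TRACK model. Slc22a8 lies at 8591254 to 8611835 and Slc22a6 at 8618039 to 8628299, both on the plus strand, with 6203 bases and no other gene between them in GENCODE M21. Within 1 Mb of Slc22a6 there are 8 genes named Slc22a, counting both. The 150 bases before each start in RefSeq (GRCm38.p6) are printed 5′ to 3′ in lower case.
Slc22a6, chr19:8617846-8617995, plus strand: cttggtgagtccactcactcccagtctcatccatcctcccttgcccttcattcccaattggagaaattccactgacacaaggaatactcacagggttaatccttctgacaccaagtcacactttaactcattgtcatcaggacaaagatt
Slc22a8, chr19:8593032-8593181, plus strand: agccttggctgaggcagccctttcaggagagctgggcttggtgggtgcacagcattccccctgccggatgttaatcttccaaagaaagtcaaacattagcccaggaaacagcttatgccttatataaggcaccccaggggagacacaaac
RefSeq starts Slc22a8 1928 bases after the first base of the gene in GENCODE M21, so its printed window lies inside the longer GENCODE gene. The windows of all members but Slc22a7, which had none in the table, were searched for 2 motifs on both strands. The letters CAAAGT, one arm of the repeat bound by HNF4, were found in 7.05% of 32817 promoter windows of this length and among the members only in Slc22a12, 63 bases before its start on the other strand. The letters TGATGNAA, the element that ATF4 binds with its C/EBP partners, were found in 2.23% of windows and in no window of a member. These are letter matches in a short window and show neither binding nor its absence.

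The other members lie apart. Slc22a12 is on chromosome 19 at 6535845 to 6543032 on the minus strand, where exons of Nrxn2 overlap it on the other strand. Slc22a7 is on chromosome 17 at 46432183 to 46438457, Slc22a13 on chromosome 9 at 119192974 to 119209098 and Slc22a22 on chromosome 15 at 57243767 to 57477625, all on the minus strand. Slc22a14 overlaps Slc22a13 on the same strand, and 2 predicted genes overlap Slc22a22 on the other. The strand setting of the authors' counting is not given, so reads from such overlaps cannot be told apart.

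Totals of counts on genes lay between 53688512 and 71364561 per library, and the 6 members had between 1457 and 127990 counts in each library, so counting error was small beside the spread between libraries. Values are given as CPM, counts brought to a common library size with edgeR's TMM method over all 17 libraries. The following facts about the libraries bear on the results. Atf4 itself did not follow the label of 1 group: it was at 93.4, 79.9 and 77.6 CPM in TRACK and at 80.4, 94.1, 94.8 and 104 CPM in the libraries labelled TRACK-ATF4 KO (log2 fold change 0.17, adjusted p = 0.352, edgeR). In GCERAΔ Atf4 was only partly lower, at 55.8 to 75.2 CPM against 74.8 to 101 CPM in WT. These 2 groups overlapped (log2 fold change -0.38, adjusted p = 0.0193, edgeR). Each direction below therefore compares libraries by label and not by a measured loss of Atf4. All WT libraries held Xist (147 to 422 CPM) and had no count for Ddx3y, while the other 3 groups held Ddx3y (49.7 to 79.9 CPM) and at most 6.06 CPM of Xist, so genotype and sex-linked class cannot be told apart in any comparison with WT. Libraries fell into 2 kinds by their share of counts on processed pseudogenes, 0.032% to 0.038% in kind A and 0.0574% to 0.0784% in kind B, and all 3 TRACK libraries were of kind B. GCERAΔ libraries 4 and 5 stood apart from libraries 1 to 3 over the genes measured, and the members differed between them as described below. No cause was tested for any of these.

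The 2 anion uptake transporters of the blood side did not move together. Slc22a6, which encodes the carrier that takes up p-aminohippurate, was at 387, 368, 388, 322 and 370.0 CPM in WT, and at 743, 559 and 526 CPM in TRACK. The libraries labelled TRACK-ATF4 KO held 497, 483, 428 and 611 CPM, and GCERAΔ libraries held 684, 923, 808, 1202 and 1163 CPM. All TRACK libraries were above all WT libraries, the 2 TRACK groups overlapped each other, and every GCERAΔ library was above every library labelled TRACK-ATF4 KO.

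Slc22a8, which encodes the carrier with the broader range of organic anions, was at 708, 618, 609.6, 656 and 694 CPM in WT and at 396, 545, 451, 744 and 614 CPM in GCERAΔ. In TRACK it was at 211, 197 and 125 CPM, and in the libraries labelled TRACK-ATF4 KO at 327, 333, 284 and 297 CPM. These 4 libraries lay between the other groups, above every TRACK library and below every WT and GCERAΔ library. In a whole cortex, fewer proximal tubule cells and less RNA per cell cannot be told apart, here and below.

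**Figure D1:**
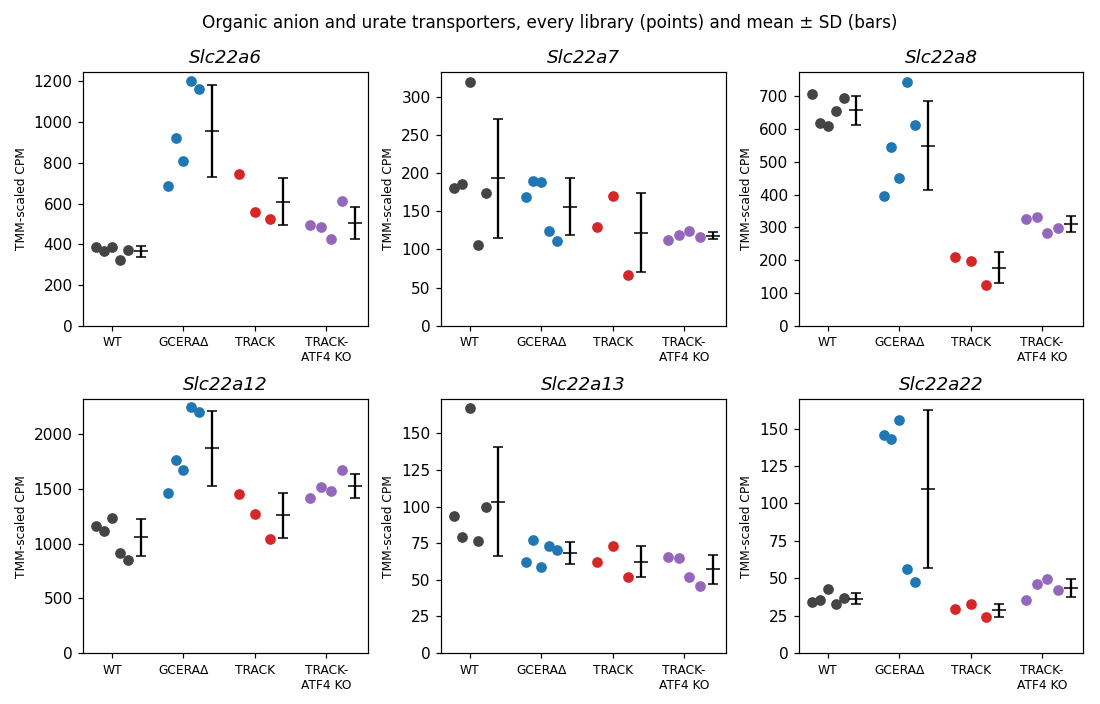
TMM-scaled CPM (vertical axis, linear from 0) of the 6 transporter genes in each of the 17 libraries, 1 panel per gene; points are single libraries, and the bar beside them is the mean with the SD. Slc22a8 is lowest in the 3 TRACK libraries (125 to 211 CPM), and Slc22a22 splits the GCERAΔ libraries into 3 at 143 to 156 CPM and 2 at 47.7 and 56.0 CPM.

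In the fitted comparison of TRACK with WT, Slc22a6 rose 1.66-fold (log2 fold change 0.73, 95% confidence interval 0.49 to 0.98, adjusted p = 0.00046, edgeR). Slc22a8 fell 3.69-fold (log2 fold change -1.89, interval -2.24 to -1.54, adjusted p = 1.11e-05, edgeR). Among the 11967 genes tested in that comparison 23.0% were called higher and 22.5% lower, and 44.3% had groups that did not overlap, so a call there was common. Of the 6 members 1 was called higher and 2 lower, and 4 did not overlap. The median log2 difference of the 6 members was -0.50, against -0.01 over all genes tested. The rise of Slc22a6 was not particular to TRACK. GCERAΔ was above WT too (log2 fold change 1.39, adjusted p = 3.68e-05, edgeR), and it also differs from WT in sex-linked class. Within kind B, with 1 WT library that was taken to vary like the 3 TRACK libraries, Slc22a8 stayed lower (log2 fold change -1.80, adjusted p = 0.0333, edgeR), and Slc22a6, at 0.73, did not pass (adjusted p = 0.0866, edgeR).

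Between the libraries labelled TRACK-ATF4 KO and TRACK, Slc22a8 was 1.76-fold higher (log2 fold change 0.81, interval 0.45 to 1.18, adjusted p = 0.0161, edgeR). All libraries of this comparison belonged to 1 sex-linked class. For Slc22a6 the log2 fold change was -0.26 (interval -0.58 to 0.06, adjusted p = 0.288, edgeR). Of 11928 genes tested, 3.14% were called higher and 4.48% lower, and 23.1% had groups that did not overlap. Of the members, 2 were called, both higher (Slc22a8 and Slc22a22), and the groups did not overlap for the same 2 genes. The median log2 difference of the 6 members was 0.12, and that of all genes tested 0.01. The call for Slc22a8 rested in part on library 2 of the TRACK-ATF4 KO group: without it the log2 fold change was 0.77 with an adjusted p of 0.0536 (edgeR). Within kind B, with 2 libraries against 3, it was 0.72 with an adjusted p of 0.155, and in the fit of all 17 libraries with library kind as a term it was 0.83 with an adjusted p of 0.0264 (edgeR).

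Against GCERAΔ, the libraries labelled TRACK-ATF4 KO held less of both. Slc22a6 was 1.91-fold lower (log2 fold change -0.94, interval -1.33 to -0.54, adjusted p = 0.00488, edgeR), and Slc22a8 was 1.79-fold lower (log2 fold change -0.84, interval -1.21 to -0.47, adjusted p = 0.00617, edgeR). In this comparison 9.34% of 11816 genes were called higher and 9.80% lower, and 19.3% had groups that did not overlap. Of the members 3 were called, all lower, and 2 did not overlap. The members had a median log2 difference of -0.63 where all genes had -0.0028. Libraries of the same number in these 2 groups deviated together, and with that number as a replicate block both differences kept their call (log2 fold changes -0.83 and -0.75, adjusted p = 0.00145 and 0.0158, edgeR), while Slc22a7 gained one.

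**Figure D2:**
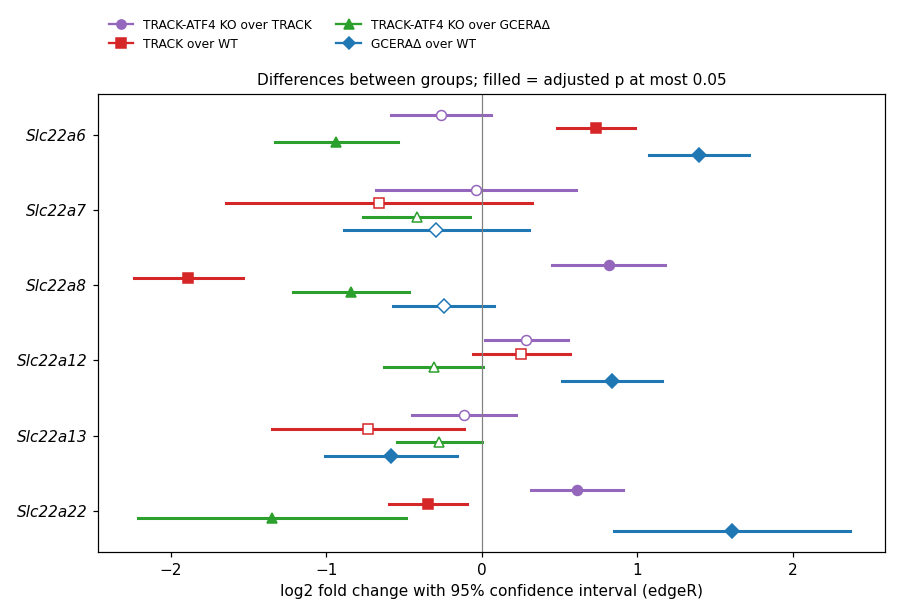
Fitted log2 fold change (horizontal axis) of each transporter gene in 4 comparisons, with the 95% confidence interval from edgeR; filled symbols passed an adjusted p of at most 0.05. Slc22a8 lies at -1.89 for TRACK over WT and at 0.81 for the libraries labelled TRACK-ATF4 KO over TRACK, while Slc22a6 lies at 0.73 and -0.26.

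The ratio of the neighbours inside each library does not depend on scaling between libraries. It was computed per length, as FPKM (counts per kilobase of merged exons, scaled to CPM) of Slc22a8 over FPKM of Slc22a6, after the values had been seen, and is given without a test. The ratio was 1.60 to 2.08 in the 5 WT libraries and 0.242, 0.289 and 0.360 in the 3 TRACK libraries. In the libraries labelled TRACK-ATF4 KO it was 0.670, 0.703, 0.676 and 0.495, and in GCERAΔ 0.538 to 0.630. The ratio of the libraries labelled TRACK-ATF4 KO therefore enclosed that of GCERAΔ, although the CPM values of both genes did not overlap between these 2 groups.

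Slc22a7 encodes OAT2, a carrier of organic anions and cyclic nucleotides found in liver and kidney. It was at 180.3, 186, 319.9, 106 and 173 CPM in WT, at 129.8, 169.6 and 67.1 CPM in TRACK, and at 113, 119, 124 and 116 CPM in the libraries labelled TRACK-ATF4 KO. GCERAΔ libraries held 169, 189 and 189 CPM in libraries 1 to 3 and 124 and 110.4 CPM in libraries 4 and 5. The gene varied most within WT, 3.02-fold between the lowest and the highest library, and least in the libraries labelled TRACK-ATF4 KO, 1.10-fold. It passed the threshold in none of the 4 comparisons by edgeR, with an unadjusted p under 0.05 in 1 of them, and in 1 by DESeq2 (the libraries labelled TRACK-ATF4 KO over GCERAΔ, log2 fold change -0.41, adjusted p = 0.0481). The log2 fold change of the libraries labelled TRACK-ATF4 KO over TRACK was -0.04 with a wide interval of -0.68 to 0.60 (adjusted p = 0.948, edgeR). Over GCERAΔ it was -0.42 (adjusted p = 0.0884, edgeR), and with the replicate block it was -0.50 and passed (adjusted p = 0.00907, edgeR). That value turned on which GCERAΔ libraries were used: it was -0.62 without libraries 4 and 5 and 0.0088 without libraries 1 to 3.

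The 2 urate carrier genes did not pass the threshold between the TRACK groups. Slc22a12 encodes URAT1, which returns urate from the urine, and was the most abundant of the 6 in every group. It was at 1457, 1269.8 and 1046 CPM in TRACK and at 1420.3, 1519, 1483 and 1672 CPM in the libraries labelled TRACK-ATF4 KO, so that TRACK library 1 overlapped the other group. WT libraries held 1161, 1119, 1237, 914 and 849 CPM, and GCERAΔ libraries 1464, 1759.8, 1671, 2249 and 2203 CPM. The log2 fold change was 0.29 for the libraries labelled TRACK-ATF4 KO over TRACK (interval 0.02 to 0.55, adjusted p = 0.173, edgeR), 0.25 for TRACK over WT (interval -0.06 to 0.57, adjusted p = 0.167) and -0.31 for the libraries labelled TRACK-ATF4 KO over GCERAΔ (interval -0.63 to 0.01, adjusted p = 0.166). These 3 differences did not pass the threshold, and their intervals do not show that the levels were alike. In GCERAΔ over WT Slc22a12 was 1.79-fold higher (log2 fold change 0.84, interval 0.52 to 1.16, adjusted p = 0.00135, edgeR), and the groups did not overlap.

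Slc22a13 encodes OAT10, an exchanger of urate and nicotinate. It was at 93.4, 79.4, 167, 76.6 and 99.9 CPM in WT, and WT library 3 was far above the others. TRACK libraries held 62.1, 73.0 and 51.7 CPM, all below every WT library, and the libraries labelled TRACK-ATF4 KO held 65.6, 64.7, 52.0 and 45.9 CPM. GCERAΔ libraries were at 62.0, 77.1, 58.9, 73.0 and 70.5 CPM. The log2 fold change of TRACK over WT was -0.73 and just missed the threshold (interval -1.35 to -0.11, adjusted p = 0.0551, edgeR). Without WT library 3 it was -0.48 and passed (adjusted p = 0.0142). It was -0.12 for the libraries labelled TRACK-ATF4 KO over TRACK (interval -0.45 to 0.22, adjusted p = 0.668) and -0.27 against GCERAΔ (adjusted p = 0.153). In GCERAΔ over WT the log2 fold change was -0.58 by the fit (adjusted p = 0.0439, edgeR), and this call was lost when any 1 of 7 of the 10 libraries was left out, with adjusted p values of up to 0.0975.

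Slc22a22 encodes OAT-PG, which takes prostaglandins out of the extracellular space. It had the lowest level per length in WT, TRACK and TRACK-ATF4 KO libraries. WT libraries held 34.1, 35.3, 42.7, 33.1 and 36.5 CPM, TRACK libraries 29.5, 32.5 and 23.8 CPM, and the libraries labelled TRACK-ATF4 KO 35.7, 46.2, 49.4 and 42.4 CPM. TRACK libraries were below all others, by small margins. The libraries labelled TRACK-ATF4 KO were 1.53-fold above TRACK (log2 fold change 0.61, interval 0.32 to 0.91, adjusted p = 0.0206, edgeR), and TRACK was 1.27-fold below WT (log2 fold change -0.34, interval -0.59 to -0.09, adjusted p = 0.0293, edgeR). Both calls depended on single libraries. The first was lost without TRACK library 1 or 3 or without TRACK-ATF4 KO library 2 or 3, with log2 fold changes of 0.50 to 0.63 and adjusted p values of up to 0.0693. The second was lost without WT library 3 or 5 or without TRACK library 1 or 3, with adjusted p values of up to 0.116. In the fit of all 17 libraries, in which the wide spread of GCERAΔ enters, neither passed (log2 fold changes 0.60 and -0.35, adjusted p = 0.301 and 0.415, edgeR).

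The GCERAΔ libraries were split for this gene, at 146, 143 and 156 CPM in libraries 1 to 3 and at 56.0 and 47.7 CPM in libraries 4 and 5. The libraries labelled TRACK-ATF4 KO were 2.55-fold below GCERAΔ by the fit (log2 fold change -1.35, interval -2.21 to -0.49, adjusted p = 0.0379, edgeR), with overlap between the groups. The call was lost when any 1 of 7 of the 9 libraries was left out. Without GCERAΔ libraries 1 to 3 the log2 fold change was -0.26 (adjusted p = 0.219), and without libraries 4 and 5 it was -1.77 (adjusted p = 9.16e-07, edgeR). Libraries 4 and 5 were also the lowest of the GCERAΔ group for Slc22a7 and the highest for Slc22a6, Slc22a8 and Slc22a12, while for Slc22a13 they lay within the range of libraries 1 to 3. What set these 2 libraries apart was not tested.

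The change that went with the Atf4 label differed between the cancer model and the normal background for the neighbours. The change in the libraries labelled TRACK-ATF4 KO over TRACK minus that in GCERAΔ over WT was tested in 1 fit of all 17 libraries. It was -1.65 for Slc22a6 (interval -2.13 to -1.17, adjusted p = 6.81e-05, edgeR) and 1.06 for Slc22a8 (interval 0.55 to 1.57, adjusted p = 0.00426, edgeR). In the normal background, where GCERAΔ also differs from WT in sex-linked class, the log2 fold changes were 1.39 and -0.25, and they were -0.26 and 0.81 in the cancer model. Both differences passed when any 1 library was left out, with adjusted p values of at most 0.0116. Of 12208 genes tested 24.9% were called in either direction, and these 2 of 6 members were called. The difference for Slc22a12 was -0.55 (interval -0.99 to -0.10, adjusted p = 0.0676) and that for Slc22a22 -0.99 (interval -1.91 to -0.07, adjusted p = 0.106). For Slc22a7 and Slc22a13 it was 0.26 and 0.47, with intervals that included 0. In GCERAΔ over WT itself 14.0% of 11581 genes were called higher, 13.4% lower and 20.2% had groups without overlap, against 3, 1 and 3 of the 6 members. Each of the 4 groups enters more than 1 of these comparisons, so they are not separate evidence.

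Compared per length, the order of the 6 levels changed between groups. In WT the mean level was 467 ± 73.4 FPKM (SD, n = 5) for Slc22a12, 168 ± 11.3 for Slc22a8, 92.1 ± 6.78 for Slc22a6, 91.9 ± 37.1 for Slc22a7, 51.6 ± 18.5 for Slc22a13 and 14.9 ± 1.55 for Slc22a22. The ranges of Slc22a6 and Slc22a7, and of Slc22a7 and Slc22a13, overlapped. In TRACK (n = 3) Slc22a12 was at 556 ± 91.0 FPKM, Slc22a6 at 153 ± 29.3, Slc22a7 at 58.2 ± 24.6, Slc22a8 at 45.5 ± 11.8, Slc22a13 at 31.1 ± 5.32 and Slc22a22 at 11.7 ± 1.81. Slc22a8 thus stood below Slc22a6 and Slc22a7 instead of above them, although its range overlapped those of Slc22a7 and Slc22a13. In the libraries labelled TRACK-ATF4 KO (n = 4) the order was Slc22a12 at 673 ± 47.4 FPKM, Slc22a6 at 127 ± 19.3, Slc22a8 at 79.3 ± 6.03, Slc22a7 at 56.1 ± 2.23, Slc22a13 at 28.5 ± 4.83 and Slc22a22 at 17.8 ± 2.42, and no neighbours in that order overlapped. In GCERAΔ (n = 5) Slc22a22, at 45.0 ± 21.8 FPKM, overlapped both Slc22a7 and Slc22a13. Of the summed FPKM of the 6 genes, Slc22a8 held 19.0% in WT, 10.3% in GCERAΔ, 5.32% in TRACK and 8.08% in the libraries labelled TRACK-ATF4 KO, and Slc22a12 held 52.7%, 60.7%, 65.0% and 68.6%.

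**Figure D3:**
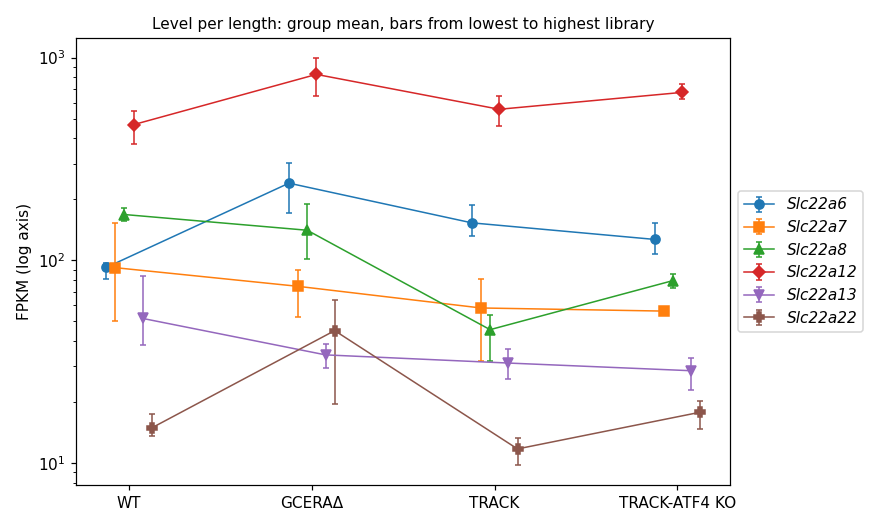
Group mean FPKM (vertical axis, log scale) of the 6 transporter genes in the 4 groups, with bars from the lowest to the highest library; lines only join the points of 1 gene. Slc22a8 goes from 168 FPKM in WT to 45.5 in TRACK and 79.3 in the libraries labelled TRACK-ATF4 KO, and Slc22a12 is on top throughout.

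Markers of the cell types of the cortex are given beside these values. For the counts of called genes here and in the lists below, 23.0% of all genes tested were higher and 22.5% lower in TRACK over WT. The shares were 3.14% and 4.48% between the TRACK groups. They were 9.34% and 9.80% for the libraries labelled TRACK-ATF4 KO over GCERAΔ, and 14.0% and 13.4% for GCERAΔ over WT. All 10 proximal tubule markers were measured above 0 in every group. Their summed level was 9704 to 11259 CPM in WT and 9699 to 13863 CPM in GCERAΔ, against 6208 to 7212 CPM in TRACK and 6775 to 7702 CPM in the libraries labelled TRACK-ATF4 KO. In TRACK over WT 5 of the 10 were lower, among them Slc34a1, the phosphate carrier (log2 fold change -1.52, adjusted p = 1.38e-05, edgeR). The 2 that were higher were Slc5a1, a glucose carrier (log2 fold change 0.46, adjusted p = 0.00540), and Slc4a4, the bicarbonate carrier of the blood side (0.45, adjusted p = 0.00245, edgeR). Between both TRACK groups 1 marker was higher, Gatm (log2 fold change 1.35, adjusted p = 0.00168), and 1 lower, Slc5a1 (log2 fold change -0.59, adjusted p = 0.00641, edgeR). The 8 markers of the loop and distal nephron summed to 6843 to 9164 CPM in WT, 4476 to 5355 CPM in GCERAΔ, 4256 to 7022 CPM in TRACK and 4995 to 5473 CPM in the libraries labelled TRACK-ATF4 KO, and 6 of the 8 were lower in TRACK than in WT. The 4 glomerular markers summed to 288 to 403 CPM in WT, 288 to 390.0 CPM in GCERAΔ, 472 to 481 CPM in TRACK and 321 to 393 CPM in the libraries labelled TRACK-ATF4 KO, with 1 higher in TRACK than in WT and 1 lower in the libraries labelled TRACK-ATF4 KO than in TRACK. For the 4 fibroblast markers the sums were 61.2 to 71.4, 70.0 to 137, 101 to 203 and 80.6 to 120.2 CPM in the same order of groups, and 2 of the 4 were higher in TRACK than in WT. Endothelial markers summed to 345 to 394 CPM in TRACK, 302 to 327 CPM in the libraries labelled TRACK-ATF4 KO and 197 to 254 CPM in the other 2 groups. The injury markers Havcr1, Lcn2, Krt20 and Vcam1 summed to 35.3 to 71.8 CPM in TRACK, 42.2 to 50.9 CPM in the libraries labelled TRACK-ATF4 KO, and at most 19.6 CPM elsewhere. They did not move together between the TRACK groups, where Havcr1 was higher (log2 fold change 0.82, adjusted p = 0.0396, edgeR). Krt20 (-1.95, adjusted p = 0.0138) and Vcam1 (-0.56, adjusted p = 0.0380) were lower, and Lcn2 did not pass (-2.30, adjusted p = 0.0737, edgeR). Immune markers stayed at 11.0 to 21.7 CPM in all groups. The 6 clock genes, a list chosen after values were seen, also moved between the TRACK groups, 1 higher and 5 lower, and Dbp had a median of 106 CPM in TRACK and 11.3 CPM in the libraries labelled TRACK-ATF4 KO, without overlap. The part that cell makeup, injury or time of day played in the transporter values was not tested.

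Another 6 organic anion genes of the family passed the expression minimum, of 10 listed, and most of them lie in the same cluster on chromosome 19. Between the libraries labelled TRACK-ATF4 KO and TRACK 3 of the 6 were higher: Slc22a26 (32.7 to 45.2 CPM in TRACK and 59.9 to 110.1 CPM in the other group, log2 fold change 1.23, adjusted p = 0.0150), Slc22a28 (18.2 to 27.6 and 38.0 to 46.6 CPM, log2 fold change 0.87, adjusted p = 0.00424) and Slc22a19 (101 to 129 and 155 to 191 CPM, log2 fold change 0.59, adjusted p = 0.00983, edgeR). For each of the 3, the values of both groups stayed apart. The median log2 difference of the 6 genes was 0.63. In TRACK over WT 3 of the 6 were higher and 2 lower, led by Slc22a30 (1.67 to 6.02 CPM in WT and 30.1 to 72.4 CPM in TRACK, log2 fold change 4.24, adjusted p = 0.000456) and Slc22a29 (30.0 to 35.6 and 1.62 to 4.09 CPM, log2 fold change -3.76, adjusted p = 2.85e-05, edgeR). Neither shift was particular to the TRACK model: in GCERAΔ over WT they were 5.20 and -3.56 (adjusted p = 5.25e-05 and 0.000246, edgeR). There 3 of the 6 were higher and 1 lower, and both comparisons with WT also differ in sex-linked class. Against GCERAΔ 1 of the 6 was lower in the libraries labelled TRACK-ATF4 KO, namely Slc22a23, by -0.87 on the log2 scale (adjusted p = 0.00220, edgeR). These genes are close paralogs, and reads may have been split between them. Slc22a20 had no count in any library, and Slc22a25 had no row of that name.

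The genes that work with these carriers were given by a list of 18, of which 15 passed the minimum. They include the dicarboxylate carrier that supplies OAT1 and OAT3 (Slc13a3), other urate carriers (Slc2a9, Slc17a1, Slc17a3, Abcg2), the lactate and monocarboxylate carriers that feed URAT1 (Slc5a8, Slc5a12), efflux pumps (Abcc2, Abcc4) and scaffolds (Pdzk1, Slc9a3r1). Between the libraries labelled TRACK-ATF4 KO and TRACK 1 was higher and 3 lower, with a median log2 difference of -0.13. Abcc4, a pump for organic anions on the urine side, was 52.7 to 57.1 CPM in TRACK and 68.0 to 93.3 CPM in the other group (log2 fold change 0.60, adjusted p = 0.0113, edgeR), and it was lower in TRACK than in WT (log2 fold change -1.32, adjusted p = 0.000233). The 3 that were lower were Xdh, the enzyme that makes urate (log2 fold change -0.84, adjusted p = 0.00324), Slc16a9 (-0.48, adjusted p = 0.00960) and Slc5a8 (-0.43, adjusted p = 0.0204, edgeR). In TRACK over WT, which shares the TRACK libraries, their log2 fold changes were 0.78, 0.89 and 1.26. Slc17a1, a urate and phosphate carrier of the urine side, was at 557 to 601 CPM in TRACK and 558 to 636 CPM in the libraries labelled TRACK-ATF4 KO.

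Against GCERAΔ, 6 of the 15 were lower in the libraries labelled TRACK-ATF4 KO, and the median log2 difference was -0.22. These were Slc13a3 (log2 fold change -0.98, adjusted p = 0.0154), Slc17a3 (-0.87, adjusted p = 0.0138), Slc9a3r1 (-0.77, adjusted p = 0.00795), Pdzk1 (-0.63, adjusted p = 0.00312), Abcg2 (-0.58, adjusted p = 0.00859) and Slc16a9 (-0.49, adjusted p = 0.0145, edgeR). Slc22a6 and Slc22a8 were lower in the same comparison, and a link between them and Slc13a3 was not tested. Where TRACK was compared with WT, Slc13a3 did not pass (log2 fold change -0.20, adjusted p = 0.171, edgeR), while Slc22a6 was higher and Slc22a8 lower. In TRACK over WT 4 of the 15 were higher and 3 lower, near the shares of 23.0% and 22.5% over all genes tested. GCERAΔ itself held more than WT of 7 of the 15 and less of 1. Among the 6 genes above, Slc17a3, Slc16a9, Abcg2 and Pdzk1 were higher there (log2 fold changes 1.77, 0.89, 0.48 and 0.44, adjusted p of at most 0.0120, edgeR). Slc13a3 and Slc9a3r1 did not pass, and Slc13a3 ranged from 520 to 1274 CPM across the GCERAΔ libraries.

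**Figure D4:**
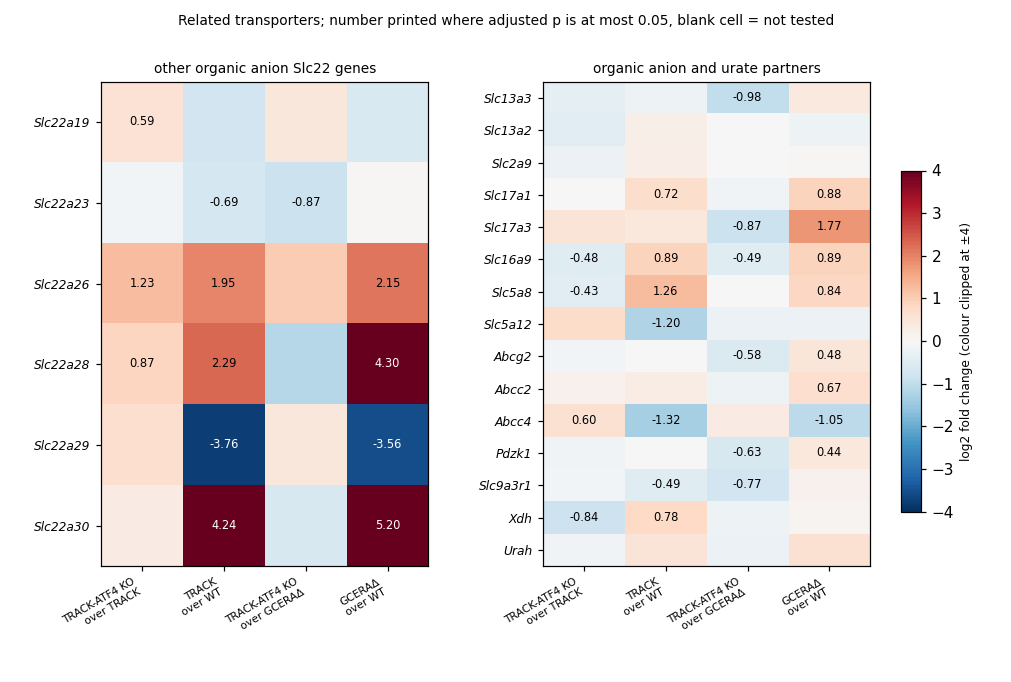
Fitted log2 fold changes (colour, clipped at 4 in size) of the other organic anion genes of the Slc22 family (left) and of genes that work with the carriers (right), rows being genes and columns the 4 comparisons; numbers are printed where the adjusted p from edgeR was at most 0.05. Slc22a19, Slc22a26 and Slc22a28 are higher in the libraries labelled TRACK-ATF4 KO than in TRACK, and 6 partner genes are lower in these libraries than in GCERAΔ.

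Transcription factors and hormone receptors that are known to act on these genes were given by a list of 12, of which 10 or 11 were tested per comparison. Between both TRACK groups 1 of 10 was lower, Nr1h4, the bile acid receptor (log2 fold change -0.58, adjusted p = 0.00769, edgeR). Hnf4a differed by -0.06 on the log2 scale (adjusted p = 0.696, edgeR). It was lower in TRACK than in WT, without overlap between the groups (log2 fold change -0.26, adjusted p = 0.0171, edgeR). In TRACK over WT 3 of 10 were higher and 3 lower, beside 23.0% and 22.5% of all genes tested. The largest value was that of Prlr, the prolactin receptor (239.6 to 338 CPM in WT and 5.32, 4.38 and 44.3 CPM in TRACK, log2 fold change -4.02, adjusted p = 0.0133, edgeR). That fall was not particular to TRACK. In GCERAΔ Prlr was at 22.7 to 40.0 CPM (log2 fold change over WT -3.26, adjusted p = 2.46e-07, edgeR), and both comparisons also differ in sex-linked class. Against GCERAΔ 2 of 11 were lower in the libraries labelled TRACK-ATF4 KO, Hnf4a (log2 fold change -0.46, adjusted p = 0.00756) and Esr1, the oestrogen receptor (-1.01, adjusted p = 0.000589, edgeR). Of 10 targets and sensors of the ATF4 pathway, 9 were higher in TRACK than in WT and 7 of 9 tested were higher in the libraries labelled TRACK-ATF4 KO than in GCERAΔ. Between both TRACK groups 1 of the 10 was lower, Chac1 (log2 fold change -1.16, adjusted p = 0.0366, edgeR), which splits glutathione.

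The genes most like each member over all 17 libraries were ranked by Pearson's r of log2 CPM over 12208 genes, leaving out genes named Slc22a, as a description of libraries that share groups and scaling. For Slc22a6 these were Acads (r = 0.960) and Aldh3a2 (r = 0.957), both enzymes of fatty acid or aldehyde breakdown, and for Slc22a8 Fmo4 (r = 0.952) and Gstk1 (r = 0.936), both enzymes that modify foreign compounds. Slc22a12 was closest to Zfp697 (r = 0.953) and Ergic1 (r = 0.923), and Slc22a22 to Gcnt1 (r = 0.971) and Ppt2 (r = 0.968). Slc22a7 was closest to Acy1 (r = 0.907) and Slc5a9 (r = 0.891), and Slc22a13 to Fam107a (r = 0.896) and Acot7 (r = 0.890). Fmo4 followed the order of Slc22a8 with group means of 36.0 CPM in WT, 31.7 in GCERAΔ, 13.4 in TRACK and 21.6 in the libraries labelled TRACK-ATF4 KO.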

How the data were processed

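RNA of mouse kidney cortex was sequenced in 17 libraries made with a stranded mRNA kit, and the study's methods give paired-end 51-base reads. The study's lane summary lists more bases per read cluster for some samples than for others, so read length was not the same in all of them. Samples whose names carry an added letter are among those with fewer bases. Since these names are not matched to the group labels, whether read length went with library kind was not tested. The authors used Cutadapt for trimming, STAR for alignment to GRCm38 and HTSeq-count for counting, and deposited raw counts per gene. The submitters' processing notes also name bcl2fastq 2.20. The annotation release, the strand setting and the handling of reads with several matches are not given in the sources used here.

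Groups were taken from the labels. The tests used edgeR 4.0.16 (TMM scaling, robust quasi-likelihood test) in R 4.3.3 and, as an alternative, DESeq2 1.42.0. Each comparison was fitted on its own groups, over genes that reached a mean of 1 FPKM in a group (GENCODE M21 merged exons), and the difference between contrasts over all 17 samples. Calls were made where p, adjusted after Benjamini and Hochberg over all genes tested, was 0.05 or less, and 30 such values concern the 6 members. The steps were tested on simulated counts. The genes named are the members, those called in the lists, and the 2 genes outside the family most like each member; Slc17a1 and the marker and clock genes were added after their values were seen. Values of 1 regulator are not reported here. The members and lists were chosen with earlier results of these data known, and support nothing by themselves.

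Libraries of 1 kind, with a share of counts on processed pseudogenes below or above 0.0467%, were told apart after the data were seen. No pair of libraries in a group agreed within sampling noise. Library numbers are shared between groups. For the libraries labelled TRACK-ATF4 KO and GCERAΔ, same-numbered libraries deviated together (correlations 0.41, 0.53, 0.52 and 0.40 over genes), and the numbers coincide with library kind, so this pairing comes from the data and not from a stated litter or day.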

Additional observations from a re-analysis of the deposited data

Results flagged for a closer look

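Slc22a13 in WT library 3, at 167 CPM, was farther from the other 4 WT values (76.6 to 99.9 CPM) than Dixon's 95% limit for 5 samples allows. Chance alone passes that limit in about 1 of 20 groups. The same library was the highest of WT for Slc22a7, at 319.9 CPM.

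For both neighbouring genes the change that went with the Atf4 label differed between the cancer model and the normal background, by a test of the difference itself. It was -1.65 on the log2 scale for Slc22a6 (adjusted p = 6.81e-05, edgeR) and 1.06 for Slc22a8 (adjusted p = 0.00426, edgeR). GCERAΔ and WT also differ in sex-linked class while both TRACK groups do not. Atf4 was not lower in the libraries labelled TRACK-ATF4 KO than in TRACK (log2 fold change 0.17, adjusted p = 0.352, edgeR). Of the 6 clock genes, 1 was higher and 5 lower between the TRACK groups. In GCERAΔ over WT 3 of them were higher and 2 lower. Whether any of the difference between contrasts belongs to Atf4 cannot be told from these libraries.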

How the results depend on the processing

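Over all alternatives and members, 502 values kept direction and side of the threshold, 52 lost a call, 20 gained one and 8 changed sign. Of the called values, the lower Slc22a8 in TRACK than in WT and both called differences between contrasts kept their calls under every alternative run. The sign changes were all of values that had not been called: Slc22a7 between the TRACK groups (0.063 with the replicate block, -0.33 to 0.27 with single libraries left out), Slc22a13 between them (-0.23 to 0.0093), Slc22a7 against GCERAΔ (0.0088 without GCERAΔ libraries 1 to 3), Slc22a8 in GCERAΔ over WT (0.054 without those libraries) and the difference between contrasts for Slc22a7 (-0.049 to 0.57; -0.015 without WT library 3).

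Between both TRACK groups 908 genes were called, 1562 by DESeq2, 583 with possible repeat libraries summed (libraries 2 and 3 of the TRACK-ATF4 KO group, WT libraries 1 and 2, GCERAΔ libraries 2 and 3), 285 in kind B and 431 to 1469 with single libraries left out. The 2 called members became 1 with the replicate block, in the fit of all 17 samples with or without library kind and with repeats summed, 0 in kind B (edgeR, 2 with an unadjusted p under 0.05) and 0 to 2 with single libraries left out (0 without TRACK-ATF4 KO library 2, 2 with an unadjusted p under 0.05). TRACK over WT had 5447 calls, 3486 with the replicate block and 1615 in kind B, where 1 of the 3 called members stayed. The libraries labelled TRACK-ATF4 KO over GCERAΔ had 2262 calls, 3789 with the replicate block, 3730 in the fit of all 17 samples with library kind, 1157 with repeats summed, 365 in kind B (0 of 3 called members, 3 with an unadjusted p under 0.05, edgeR) and 1438 to 2341 with single libraries left out. GCERAΔ over WT fell from 3180 calls to 100 in kind B (0 of 4 called members, 2 with an unadjusted p under 0.05, edgeR), where WT has 1 library. With possible repeat libraries summed, which for the difference between contrasts was chosen after the data were seen, calls were lost for Slc22a22 between the TRACK groups (0.56, adjusted p = 0.0566) and against GCERAΔ (-1.26, adjusted p = 0.123) and for Slc22a13 in GCERAΔ over WT (-0.64, adjusted p = 0.0682, edgeR). The other called values of members kept their calls there, among them Slc22a8 between the TRACK groups (0.81, adjusted p = 0.0424) and the differences between contrasts for Slc22a6 and Slc22a8 (-1.67 and 1.01, adjusted p = 0.000878 and 0.0187, edgeR). The cause was not tested, and the fits in kind B also hold fewer samples.

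Library numbers did not pair the samples in the other comparisons (correlations of -0.57 to 0.06), and there the replicate block cost the calls of Slc22a22 (0.62 between the TRACK groups, -0.39 in TRACK over WT) and Slc22a13 (-0.53 in GCERAΔ over WT). In the paired comparison it changed no call but that of Slc22a7. A covariate for sex-linked class was not run, since no comparison holds both classes in both groups, and library kind was not fitted within the comparisons with TRACK, whose libraries are all of 1 kind. DESeq2 called Slc22a13 in TRACK over WT (-0.72, adjusted p = 0.0343) and Slc22a12 for the difference between contrasts (-0.56, adjusted p = 0.0287). Slc22a8 in GCERAΔ over WT, not called at -0.25 (adjusted p = 0.246, edgeR), gained a call as lower without GCERAΔ library 4 (-0.37, adjusted p = 0.0472), in kind A (-0.49, adjusted p = 0.0160) and without GCERAΔ libraries 4 and 5 (-0.49, adjusted p = 0.00447, edgeR). Slc22a22 in GCERAΔ over WT was 0.52 without GCERAΔ libraries 1 to 3 and 2.04 without libraries 4 and 5. Depth was similar in all groups, and 3 libraries in TRACK and the spread within GCERAΔ limit these comparisons more than counting error does.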
